A study of Mus musculus with 6 samples.

Results

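The interferon response genes described here are 45 genes chosen by name as receptors, transcription factors, nucleic acid sensors and induced effectors of the interferon pathway. They were chosen with earlier results of these data known. A probe set assigned to a single gene was found for 42 of them, and Isg15 and Gbp2 were read on probe sets shared with a near-identical gene (Gm9706 and Gbp2b), so 44 members were measured among 19733 genes. Ifi44 has no probe set assigned to it here and is not analysed. For a member with several probe sets, the one with the highest mean over the 6 arrays was used.

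The cells were bone marrow pre-B cells of Ppp2r1afl/fl mice, in which loxP sites flank the gene of the PP2A scaffold subunit (PP2A is a serine/threonine phosphatase). All of them had been transformed by transduction with BCR-ABL1, a fusion kinase that occurs in some acute lymphoblastic leukaemias. In the Cre group (3 arrays) a further vector delivered Cre recombinase to delete PP2A, and in the EV group (3 arrays) that vector was empty. Both groups had thus been transduced, and the labels' word for the EV genotype, wild type, stands for cells with intact floxed alleles. No array had Cre in cells without floxed alleles, so effects of Cre itself and of the loss of Ppp2r1a cannot be told apart. The sources used here do not give the age of the mice, the promoter that drives Cre or the time between transduction and collection. They also leave unsaid whether repeats are separate cultures, so p-values reflect array-to-array spread that may be technical.

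Interferons are secreted proteins that warn cells of infection. Type I interferons bind the receptor chains IFNAR1 and IFNAR2, and interferon-gamma binds IFNGR1 and IFNGR2. Receptor-bound kinases then phosphorylate STAT proteins, which enter the nucleus and act on several kinds of promoter element: the interferon-stimulated response element, read by the complex that holds STAT2 and IRF9, and the gamma-activated sequence, read by STAT dimers. The induced genes degrade viral RNA, block translation, trap virions and raise antigen presentation. Cytosolic sensors of nucleic acids such as RIG-I (Ddx58), MDA5 (Ifih1) and STING (Tmem173) start the production of interferon itself. In B cell precursors interferons are known as brakes on growth and survival.

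Values are log2 expression levels made with RMA, 1 per probe set and array, and changes are Cre minus EV on that scale. Array medians over all probe sets lay between 5.22 and 5.27. Within a group, pairs of arrays had r between 0.9955 and 0.9963 over genes. Ppp2r1a, the deleted gene, had levels of 7.12, 6.98 and 6.92 in the Cre arrays, against 9.06, 9.05 and 9.06 in the EV arrays. The labelled pre-B cell type was checked against 13 measured markers, whose means over the 6 arrays were at least 6.67. Igll1, of the surrogate light chain, averaged 12.04 in both Cre and EV. Rag1, Rag2 and Dntt, the genes of V(D)J recombination, fell (changes of -2.09, -1.84 and -0.48; limma adjusted p = 0.000155, 0.00469 and 0.03). These were the 3 of 13 that passed (23.1%, beside 3.49% of all genes tested). Groups did not overlap in 7 (53.8%, beside 22.5%). Of these, Cd79a (0.14) and Pax5 (0.08) were higher in Cre, and Ebf1 (-0.24), Il7r (-0.12) and the 3 that passed were lower. The T and NK markers (13 measured) and the erythroid and megakaryocyte markers (9 measured) had means of at most 5.12 and 5.37, and none of either list passed the test (limma; 0 of 13 and 0 of 9 also at an unadjusted p below 0.05). None of the 10 stromal and endothelial markers passed either (limma; 2, or 20.0%, had an unadjusted p below 0.05, beside 16.1% of all genes tested). Their highest mean was 7.09, that of Pecam1, which leukocytes also express, with a change of 0.29 (limma adjusted p = 0.0837), and Cxcl12 differed by -0.21 (limma adjusted p = 0.185). The part of such cells in the results was not tested.

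Few of the interferon response genes passed the test in the Cre cells, and those that did lay in both directions. Of the 44 measured members, 2 rose, 2 fell and 40 did not pass (limma, Benjamini-Hochberg adjusted p below 0.05 over all genes tested). The transcription factor Irf1 and the exonuclease Isg20 rose, and the interferon-gamma receptor chain Ifngr1 and the antiviral protein Ifit2 fell, by 1.32-fold to 1.38-fold. The members that passed were 4.55% in each direction, beside 1.35% of all genes tested that rose and 2.14% that fell (9.09% beside 3.49% for both). As the members were chosen with earlier results of these data known, these shares are a description. The median change of the members was 0.08, beside -0.003 for all genes tested, and their median size of change was 0.13, beside 0.09. With the dimmest 50% of genes left out, dim members dropped out too, and the median change of those that remained was 0.027. Without EV replicate 2 it was 0.053 over all measured members.

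**Figure D1:**
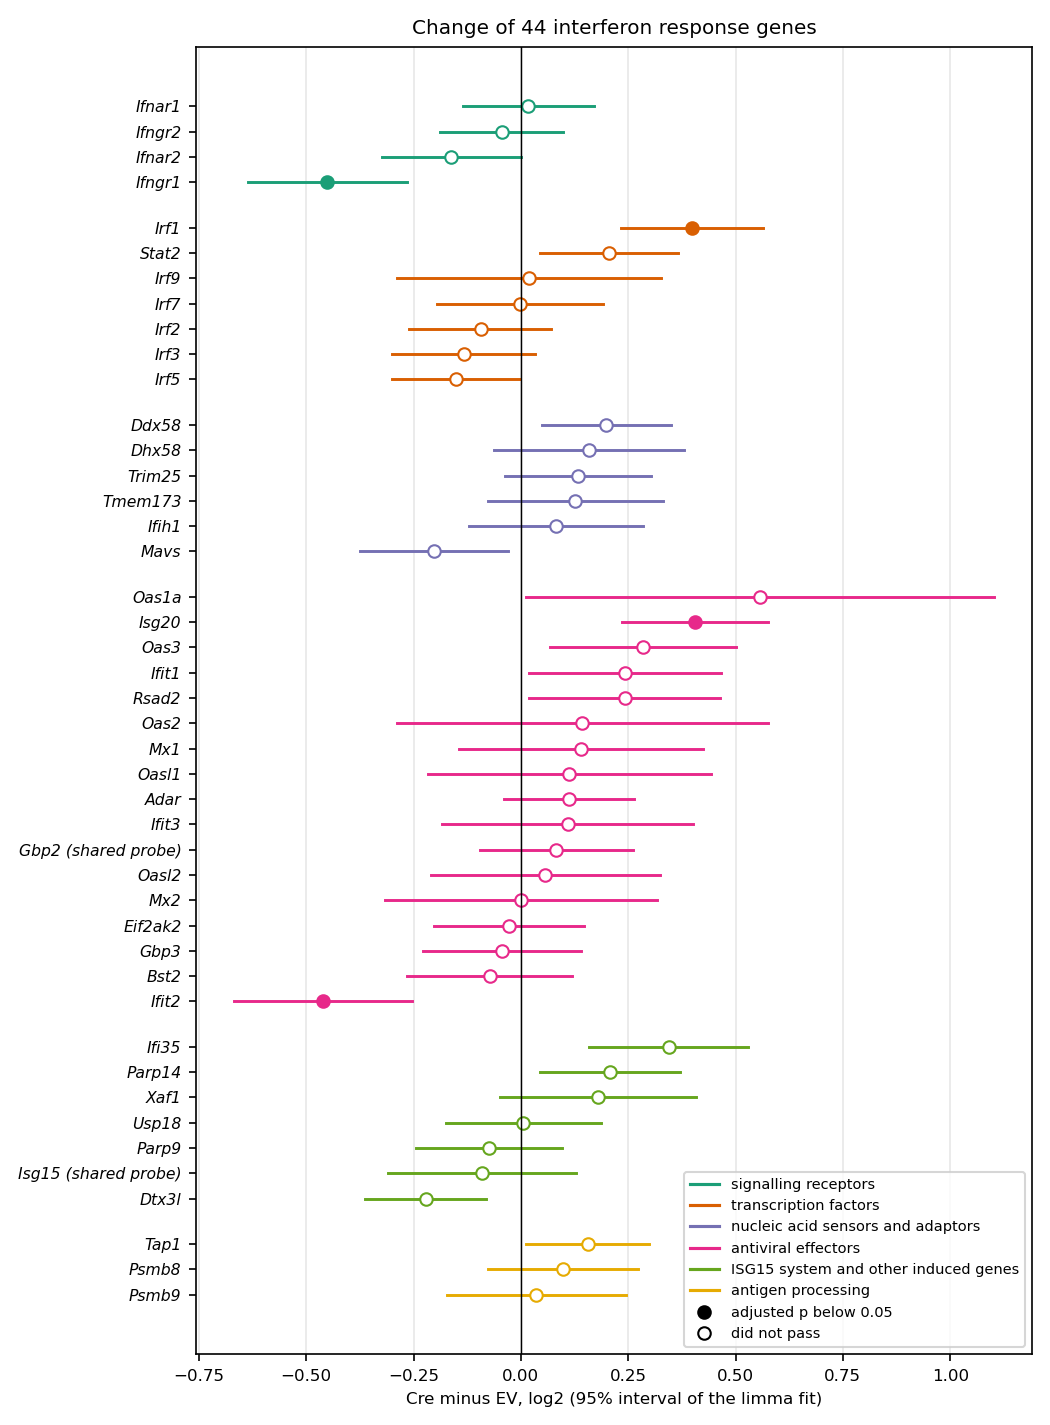
Change (Cre minus EV, log2) of the 44 measured interferon response genes, grouped by role, with the 95% interval of the limma fit. Filled points passed the test: Irf1 and Isg20 lie to the right of 0, Ifngr1 and Ifit2 to the left, and the widest interval is that of Oas1a (0.01 to 1.10).

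More members had arrays that did not overlap between groups than had passed the test. In 12 members (27.3%) the lowest Cre array lay above the highest EV array, against 10.3% of all genes tested, and in 7 members (15.9%) every Cre array lay below every EV array, against 12.2%. Together these were 19 of 44 members, 43.2%, against 22.5% of all genes tested. Of these 19 members, 15 did not pass, with changes of at most 0.34 in size (Ifi35). An unadjusted p below 0.05 (limma) was found for 17 members (38.6%), against 16.1% of all genes tested. These shares, too, are a description, for the same reason of choice.

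The promoters of the 4 genes that passed are shown because STAT and IRF proteins act on elements of this kind. Each is the 250 bases before the most upstream start in the RefSeq table (GRCm38.p6), written 5′ to 3′ on the strand of the gene. Capitals mark matches to the gamma-activated sequence TTCNNNGAA, in which N is any base. The response element, searched in the same bases on both strands, is GAAA, any 2 bases and GAAA again (TTTC, any 2 bases and TTTC where it lies on the opposite strand). None of the 4 windows holds it. RefSeq promoters were matched for 37 of the 45 members.
Ifngr1, chr10:19591699-19591948, plus strand: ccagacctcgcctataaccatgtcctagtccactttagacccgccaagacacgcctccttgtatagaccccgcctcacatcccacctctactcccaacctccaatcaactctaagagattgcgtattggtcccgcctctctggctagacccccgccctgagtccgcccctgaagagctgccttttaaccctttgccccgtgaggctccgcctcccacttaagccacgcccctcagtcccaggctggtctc
Irf1, chr11:53769764-53770013, plus strand: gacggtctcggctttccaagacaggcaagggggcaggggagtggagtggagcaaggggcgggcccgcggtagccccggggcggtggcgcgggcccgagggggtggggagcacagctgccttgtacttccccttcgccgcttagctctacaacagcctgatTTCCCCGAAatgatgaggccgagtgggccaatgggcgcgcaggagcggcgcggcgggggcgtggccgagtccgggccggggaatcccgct
Isg20, chr7:78913174-78913423, plus strand: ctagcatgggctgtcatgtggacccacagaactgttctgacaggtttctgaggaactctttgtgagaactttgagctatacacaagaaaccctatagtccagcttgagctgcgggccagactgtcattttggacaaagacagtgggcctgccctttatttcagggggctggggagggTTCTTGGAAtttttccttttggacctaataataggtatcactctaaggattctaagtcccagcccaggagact
Ifit2, chr19:34550444-34550693, plus strand: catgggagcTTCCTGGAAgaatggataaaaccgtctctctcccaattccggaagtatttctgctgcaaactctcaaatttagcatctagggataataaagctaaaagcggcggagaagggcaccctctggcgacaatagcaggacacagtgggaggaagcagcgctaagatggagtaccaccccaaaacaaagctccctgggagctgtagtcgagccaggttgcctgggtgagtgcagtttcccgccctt

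The Irf1 match lies 82 to 90 bases before the start, that of Isg20 65 to 73 bases before it and that of Ifit2 233 to 241 bases before it, while the Ifngr1 window holds neither motif. The table lists 2 starts for Irf1, 3 for Isg20 and 2 for Ifit2, and only the window of the most upstream was searched and is shown. Among the 37 members with a promoter, 9 (24.3%) held a gamma-activated sequence, against 7.14% of 27025 promoters in the table, and 11 (29.7%) held the response element, against 3.05%. The members were chosen as interferon response genes, and many are textbook targets of these elements, so the shares are a description.

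For contrast, the 4 response element holders with the smallest p among members that did not pass are shown as 60 bases around the matches, with the response element in capitals in the form in which it lies on the strand of the gene.
Oas3, chr5:120777700-120777759, minus strand: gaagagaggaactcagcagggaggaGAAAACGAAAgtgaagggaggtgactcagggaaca
Stat2, chr10:128270251-128270310, plus strand: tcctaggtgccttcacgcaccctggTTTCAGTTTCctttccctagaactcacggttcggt
Rsad2, chr12:26456538-26456597, minus strand: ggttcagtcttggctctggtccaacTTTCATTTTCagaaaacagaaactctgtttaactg
Ifit1, chr19:34640770-34640829, plus strand: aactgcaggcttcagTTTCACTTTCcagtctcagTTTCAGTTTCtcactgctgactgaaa

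Ifit1 holds 2 matches, 76 to 85 and 95 to 104 bases before its start. The 11 holders were Irf2, Stat2, Ifit1, Ifit3, Isg15, Oas1a, Oas3, Rsad2, Bst2, Gbp2 and Gbp3. None of them passed the test, beside 3.49% of all genes tested. With 11 genes, the absence of a call cannot be told apart from that share. The change was positive in 7 of the 11, and their median change was 0.11. Among the other 25 measured members with a promoter, which held no match in the bases searched, 2 rose and 2 fell, with a median change of 0.04. Windows before further starts of a gene were not searched. Members counted here, Ifit2 among them, may thus hold the element elsewhere. Of the 9 holders of a gamma-activated sequence, 2 rose (Irf1 and Isg20) and 1 fell (Ifit2), beside 3.49% of all genes tested that passed. The change was positive in 4 of the 9, and their median change was -0.03. Among the other 27 measured members with a promoter, 0 rose and 1 fell (limma), with a median change of 0.08. The difference between holders and others was not tested. In Isg15, Oas1a, Bst2 and Gbp3 matches to the response element overlapped each other, and in Bst2 a match also overlapped the gamma-activated sequence. A match of letters is a description and does not show binding.

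**Figure D2:**
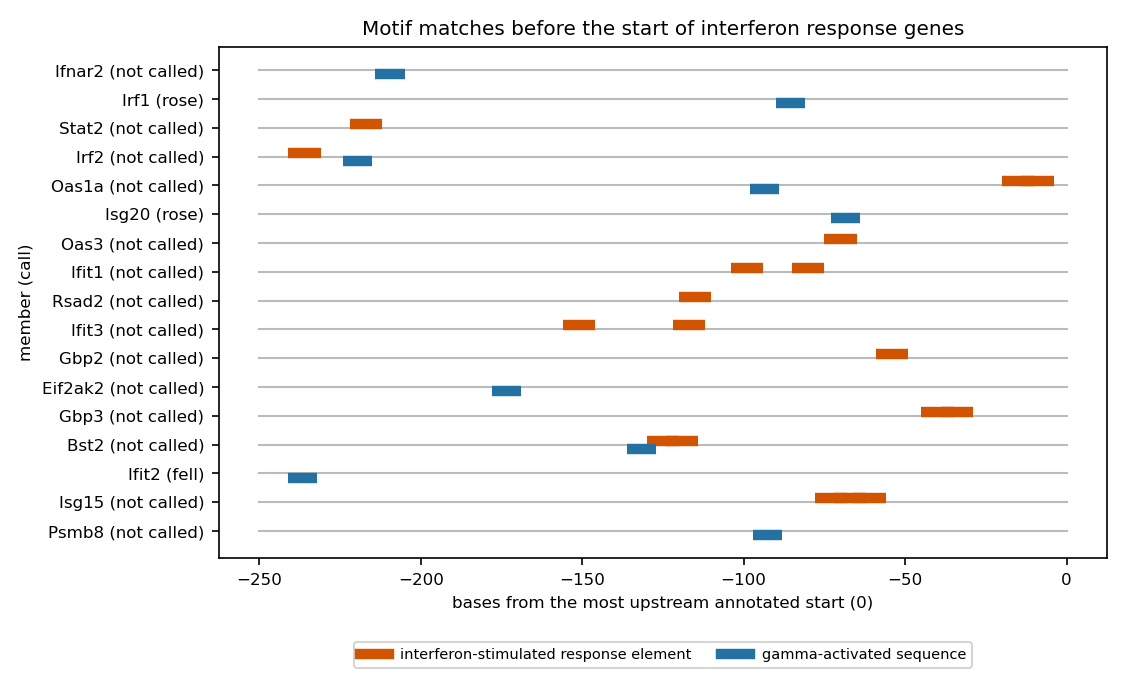
Matches to the response element (orange) and the gamma-activated sequence (blue) in the 250 bases before the most upstream annotated start (0) of the members that hold at least 1, on an axis of bases, with the call of each gene. Isg15 holds 3 overlapping response elements, and the 3 called genes shown (Irf1, Isg20 and Ifit2) hold a gamma-activated sequence only in these bases. Windows before other starts were not searched.

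The receptors were led by a fall of Ifngr1, which encodes the ligand-binding chain of the interferon-gamma receptor. Its levels were 7.92, 7.91 and 7.69 in the Cre arrays, against 8.29, 8.31 and 8.26 in the EV arrays. All Cre arrays lay below all EV arrays, and the Cre arrays were the more spread (SD 0.13, against 0.03 in EV, n = 3 each). The change was -0.45 (SE 0.08; limma adjusted p = 0.0245), a level 1.37-fold lower in Cre. The partner chain Ifngr2, which carries the signal to the kinase JAK2, had levels of 9.04, 8.99 and 8.94 in Cre and 9.05, 9.02 and 9.04 in EV, with overlapping groups and a change of -0.05 (95% interval -0.19 to 0.10).

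The difference between both receptor chains was also read within each array. Ifngr1 minus Ifngr2 was -1.12, -1.09 and -1.25 in Cre, against -0.76, -0.71 and -0.78 in EV (two-sided exact permutation p = 0.1, the smallest that 3 arrays against 3 allow). In all, 5 pairs of members were compared in this way, all chosen after their values were seen, and each had an adjusted permutation p of 0.1. Each pair holds a member that had passed, so these differences are no independent test. The pair not shown was Isg20 minus Ifit2, a member that rose and a member that fell. The type I receptor chains did not pass: Ifnar1 differed by 0.02 (95% interval -0.14 to 0.17) and Ifnar2 by -0.16 (SE 0.07; limma adjusted p = 0.309). Ifnar2 had levels of 8.28, 8.29 and 8.18 in Cre, all below the 8.43, 8.47 and 8.33 in EV.

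Among the transcription factors, Irf1 rose and the other 6 did not pass (14.3% passed, beside 3.49% of all genes tested). Shares of the role groups are, like those of all members, a description. Irf1, itself induced by interferon-gamma and an activator of antigen presentation genes, had levels of 6.85, 6.73 and 6.74 in Cre, against 6.28, 6.42 and 6.41 in EV. Every Cre array was higher than every EV array. The change was 0.40 (SE 0.07; limma adjusted p = 0.0256), a 1.32-fold higher level. A second Irf1 probe set read 5.83, 6.04 and 6.0 in Cre and 5.65, 6.0 and 5.72 in EV, with overlapping groups and a change of 0.17 (SE 0.11; limma adjusted p = 0.516 over all probe sets). With the mean of both probe sets as the level, the change was 0.28 and did not pass (limma adjusted p = 0.112).

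Irf2, which competes with Irf1 for its sites, had a change of -0.09 (95% interval -0.26 to 0.07). Within arrays, Irf1 minus Irf2 was -1.92, -2.05 and -2.11 in Cre, against -2.54, -2.57 and -2.45 in EV (two-sided exact permutation p = 0.1). This pair, too, was chosen after its values were seen and is no independent test. Stat2 and Irf9 are partners in the complex that binds the response element. Stat2 had levels of 7.25, 7.19 and 7.26 in Cre, above 6.96, 7.12 and 7.01 in EV, with a change of 0.20 (SE 0.07; limma adjusted p = 0.189). Irf9 overlapped between groups, with a change of 0.02 and a wide interval (-0.29 to 0.33).

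The factors that switch on interferon genes after sensing did not pass either. Irf3, the factor that STING and MAVS activate, differed by -0.13, and Irf5, which acts below Toll-like receptors, by -0.15, both with all Cre arrays below all EV arrays. Irf7, the amplifier of type I interferon production and a typical induced gene, read 4.16, 4.14 and 4.40 in Cre and 4.25, 4.21 and 4.24 in EV, a change of -0.002 (95% interval -0.20 to 0.19).

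None of the 6 sensors and adaptors passed (limma; 2, or 33.3%, had an unadjusted p below 0.05, beside 16.1% of all genes tested). Ddx58, the sensor RIG-I, had levels of 6.71, 6.78 and 6.66 in Cre, above 6.54, 6.49 and 6.53 in EV, with a change of 0.20 (SE 0.06; limma adjusted p = 0.17). Mavs, the mitochondrial adaptor through which RIG-I and MDA5 signal, read 7.48, 7.31 and 7.40 in Cre, below 7.68, 7.55 and 7.56 in EV, with a change of -0.20 (SE 0.07; limma adjusted p = 0.225). The sensor and its adaptor thus had changes of opposite sign, neither of which passed. Trim25, a ubiquitin ligase that activates RIG-I, differed by 0.13 with groups that did not overlap, and Tmem173, Dhx58 and Ifih1 by 0.13, 0.16 and 0.08 with groups that overlapped.

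Of the 17 antiviral effectors, 1 rose, 1 fell and 15 did not pass (11.8% passed, beside 3.49% of all genes tested). Isg20, an exonuclease that degrades RNA, had levels of 6.80, 6.74 and 6.63 in Cre, against 6.26, 6.38 and 6.30 in EV. The groups did not overlap, and the change was 0.41 (SE 0.07; limma adjusted p = 0.0264), a 1.33-fold higher level. Ifit2, an RNA-binding protein of the tetratricopeptide repeat family, had levels of 5.82, 6.10 and 5.92 in Cre, against 6.45, 6.46 and 6.32 in EV. All Cre arrays were lower, with a change of -0.46 (SE 0.09; limma adjusted p = 0.0341), a 1.38-fold lower level.

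**Figure D3:**
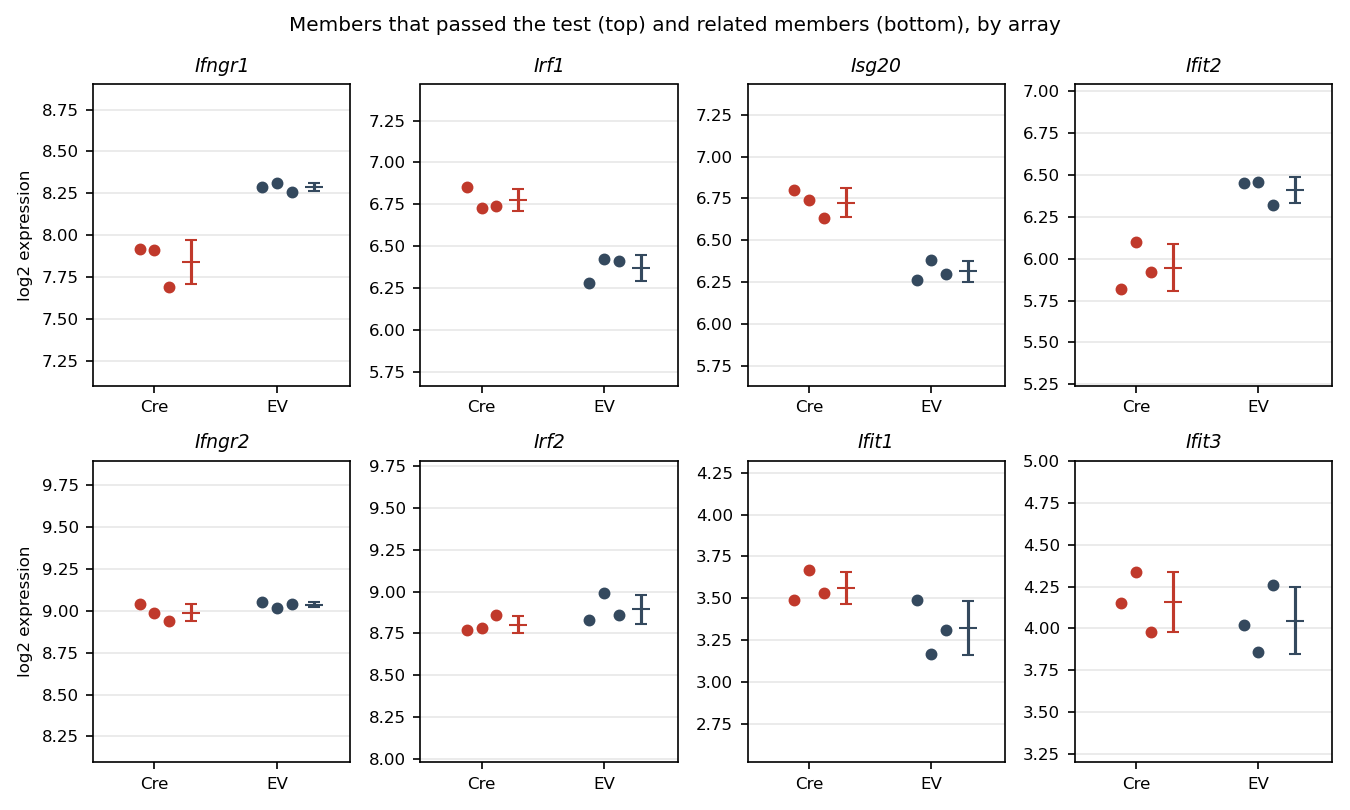
Log2 expression of the 4 members that passed the test (top) and of 4 related members (bottom) in each Cre array (red) and EV array (dark blue), with the mean and SD of 3 arrays. All panels span the same log2 range. The groups are apart in all 4 upper panels, whereas Ifngr2, Irf2 and Ifit3 overlap.

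Ifit2 was set beside its neighbours on chromosome 19. Ifit1, which binds viral RNA that lacks cap methylation, read 3.49, 3.67 and 3.53 in Cre and 3.49, 3.17 and 3.31 in EV, with a change of 0.24 (SE 0.10; limma adjusted p = 0.269). The lowest Cre and highest EV array of Ifit1 were equal to 2 decimals. Ifit3, its binding partner, differed by 0.11 (95% interval -0.18 to 0.40) with overlapping groups. Ifit2 minus Ifit1 was 2.33, 2.44 and 2.39 in Cre, against 2.96, 3.29 and 3.01 in EV. Ifit2 minus Ifit3 was 1.67, 1.76 and 1.94 in Cre, against 2.43, 2.60 and 2.06 in EV (two-sided exact permutation p = 0.1 for each). These pairs were chosen after their values were seen and are no independent test. Ifit1 was dim, below the array medians in all arrays, so a change in it may be understated.

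The oligoadenylate synthetases, which make the activator of RNase L, differed in how steady they were. Oas1a read 5.70, 5.87 and 5.68 in Cre, against 4.62, 5.28 and 5.68 in EV. The EV arrays were far more spread than the Cre arrays (SD 0.10 in Cre, against 0.54 in EV, n = 3 each), EV replicate 3 reached the lowest Cre array, and the change of 0.56 was the largest of any member but did not pass (SE 0.24; limma adjusted p = 0.301). A probe set shared by Oas1a and Oas1g differed by -0.09 (SE 0.06), so the probe sets of this gene had changes of opposite sign. Oas2 read 4.40, 4.78 and 4.24 in Cre and 4.02, 4.31 and 4.66 in EV, with overlapping groups (change 0.14, SE 0.19). Oas3 had levels of 4.26, 4.36 and 4.50 in Cre, above 4.16, 4.16 and 3.94 in EV, with a change of 0.28 (SE 0.09; limma adjusted p = 0.177).

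Among the other effectors, Rsad2, the antiviral enzyme viperin, had levels of 3.48, 3.71 and 3.83 in Cre, above 3.46, 3.38 and 3.44 in EV (change 0.24; limma adjusted p = 0.266). Mx1 and Mx2, dynamin-like GTPases, differed by 0.14 and by 0.00, and Oasl1 and Oasl2 by 0.11 and 0.06. Bst2, the virion tether tetherin, differed by -0.07, and Eif2ak2, the kinase PKR that halts translation, by -0.03 (95% interval -0.20 to 0.15). Adar, which edits adenosines in RNA, differed by 0.11. The guanylate-binding proteins Gbp2 (shared probe set) and Gbp3 differed by 0.08 and -0.04. The groups did not overlap in Rsad2 and Adar, and they overlapped in the rest of these genes.

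None of the 7 measured genes of the ISG15 system and related induced genes passed. An unadjusted p below 0.05 (limma) was found for 3 of them (42.9%, beside 16.1% of all genes tested). Ifi35, a leucine zipper protein that pairs with Nmi, came nearest, with levels of 7.02, 7.18 and 7.0 in Cre above 6.62, 6.76 and 6.80 in EV, a change of 0.34 (SE 0.08; limma adjusted p = 0.0681). Parp9 and Dtx3l form an ADP-ribosylating ubiquitin ligase complex. Dtx3l read 7.27, 7.24 and 7.20 in Cre, below 7.43, 7.47 and 7.48 in EV (change -0.22; limma adjusted p = 0.113), whereas Parp9 overlapped between groups (change -0.07). Parp14, a related transferase, had levels of 6.90, 6.93 and 6.83 in Cre, above 6.73, 6.59 and 6.72 in EV (change 0.21; limma adjusted p = 0.188). Isg15, the ubiquitin-like modifier, differed by -0.09 on its shared probe set, Usp18, which removes it, by 0.01, and Xaf1, a pro-apoptotic factor, by 0.18. Their groups overlapped.

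The 3 genes of antigen processing had small positive changes, and none passed. An unadjusted p below 0.05 (limma) was found for 1 of them (33.3%, beside 16.1% of all genes tested). Tap1, the peptide transporter, read 7.56, 7.62 and 7.53 in Cre, above 7.44, 7.40 and 7.40 in EV (change 0.16; limma adjusted p = 0.265). The immunoproteasome subunits Psmb8 and Psmb9 were bright and differed by 0.10 and 0.04 with overlapping groups.

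**Figure D4:**
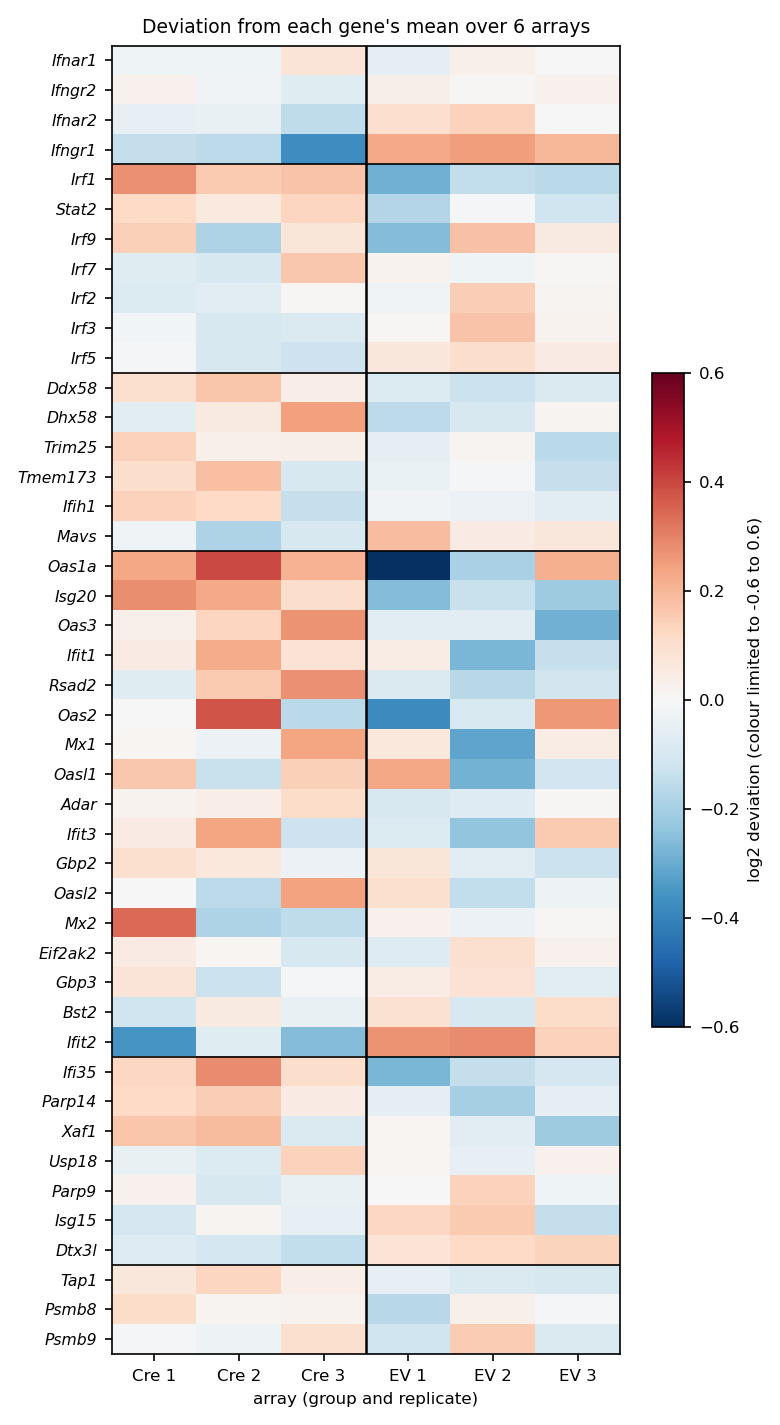
Deviation of each member (rows, by role) from its own mean over the 6 arrays (columns), as log2 on a colour scale limited to -0.6 to 0.6. Ifngr1 and Ifit2 are low and Irf1 and Isg20 high in all 3 Cre arrays, and the EV 1 value of Oas1a (4.62) lies beyond the colour scale.

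Averaged over role groups, the deviations from each gene's mean were small. For the 17 effectors they were 0.05, 0.07 and 0.05 in the Cre arrays, against -0.06, -0.10 and -0.01 in the EV arrays. For the 4 receptors they were -0.05, -0.06 and -0.13 in Cre, against 0.08, 0.11 and 0.06 in EV. Ifngr1 had the largest of the receptor deviations in every array (-0.145, -0.157 and -0.375 in Cre, against 0.225, 0.25 and 0.2 in EV). Ifnar1 and Ifngr2 overlapped between groups, and Ifnar2 was lower in Cre. For the 7 transcription factors the groups overlapped. Over all 44 members the means were 0.04, 0.03 and 0.02 in Cre and -0.04, -0.02 and -0.02 in EV. The spread between arrays of a group was close to that of other genes, with a median pooled SD of 0.09 for members and 0.11 for all genes tested. It was widest for Oas1a (0.39) and Oas2 (0.30).

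The 4 member calls were sensitive to leaving out single arrays. Fewer of all genes tested also passed in each of these smaller fits, as given in the closing section, so lost calls were not particular to the members. With any 1 of the 6 arrays left out, Irf1 (limma adjusted p between 0.0614 and 0.0958) and Ifngr1 (between 0.0515 and 0.0886) no longer passed. Ifit2 passed in 1 of these 6 fits, that without Cre replicate 2 (limma adjusted p = 0.031; 0.061 to 0.115 in the others), and Isg20 in 1, that without Cre replicate 3 (0.0398; 0.0562 to 0.0991 in the others). The direction of each of the 4 changes held in all these fits.

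The pathway was followed beyond the members in 36 further entries, which cover kinases, ligands, sensors and inhibitors, of which 33 were measured. Of these 3 rose, 1 fell and 29 did not pass (12.1%, beside 3.49% of all genes tested), with a median change of 0.03. Both this list and that of further induced genes below were chosen with earlier results of these data known. Their shares are thus a description. Tlr9, the endosomal receptor of CpG DNA, had levels of 6.49, 6.39 and 6.34 in Cre, against 5.37, 5.25 and 5.26 in EV. All Cre arrays lay far above all EV arrays, and the change was 1.11 (SE 0.07; limma adjusted p = 0.000231), a 2.17-fold higher level, larger than that of any member. Aim2, the cytosolic DNA sensor that assembles an inflammasome, read 6.32, 6.21 and 6.19 in Cre, against 6.86, 7.07 and 6.78 in EV, a change of -0.66 (SE 0.09; limma adjusted p = 0.00791). Zbp1, a sensor of Z-form nucleic acids, rose by 0.55 (SE 0.08; limma adjusted p = 0.0136), with levels of 6.17, 6.16 and 5.92 in Cre above 5.58, 5.51 and 5.49 in EV. Samhd1, which depletes nucleotides, rose by 0.37 (SE 0.07; limma adjusted p = 0.0273).

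Leaving out 1 array kept the calls of Tlr9 and Aim2 in all 6 fits. Zbp1 passed without Cre replicate 3 or without EV replicate 1, and not when Cre replicate 1 or 2, or EV replicate 2 or 3, was left out (highest limma adjusted p = 0.06), and Samhd1 passed in none of the 6 fits (limma adjusted p between 0.0592 and 0.0962). The 7 interferon genes on this list (Ifna4, Ifnb1, Ifne, Ifng, Ifnk, Ifnl2 and Ifnl3, the last on a shared probe set) included none that passed, with changes between -0.14 and 0.35. Of these genes, 1 (14.3%) had an unadjusted p below 0.05 (limma), beside 16.1% of all genes tested. They were named after their values were seen.

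Of 74 further interferon-induced genes, 72 were measured (9 of them on shared probe sets): 4 rose, 1 fell and 67 did not pass (6.94%, beside 3.49%), with a median change of 0.06. Irgm2 and Igtp were read on the same probe set, and so were Gbp6 and Gbp10. Their readings thus count more than once among those that did not pass. Ifitm2, a membrane protein that limits virus entry, had levels of 8.82, 8.76 and 8.69 in Cre, against 9.29, 9.55 and 9.51 in EV, and fell by 0.69 (SE 0.09; limma adjusted p = 0.00536), a 1.62-fold lower level. Irgm1, an immunity-related GTPase, rose by 0.40 (SE 0.07; limma adjusted p = 0.0189), Casp1, the inflammasome protease, by 0.42 (SE 0.08; adjusted p = 0.0319) and Epsti1 by 0.36 (SE 0.07; adjusted p = 0.0343). Nmi, the partner of Ifi35, rose by 0.38 (SE 0.08; limma adjusted p = 0.0485), with levels of 7.72, 7.80 and 7.58 in Cre above 7.33, 7.24 and 7.39 in EV. Ifitm2 passed in all 6 fits with 1 array left out. Irgm1, Epsti1 and Nmi passed in none of them (highest limma adjusted p 0.0779, 0.114 and 0.158), and Casp1 only in that without Cre replicate 3 (0.0459; highest 0.106).

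**Figure D5:**
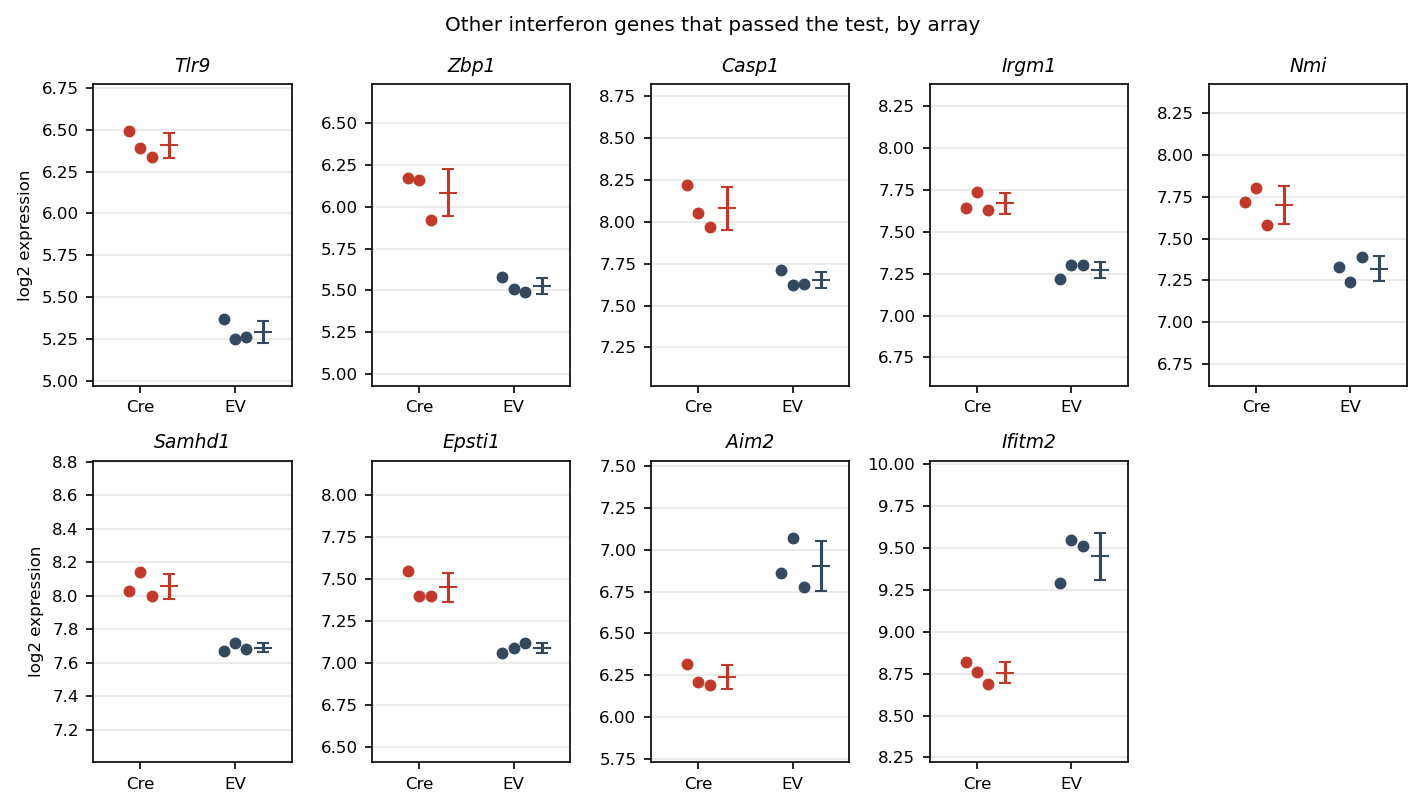
Log2 expression in each Cre array (red) and EV array (dark blue) of the 9 other interferon genes that passed the test, with the mean and SD of 3 arrays, from Tlr9, the largest rise, to Ifitm2, the largest fall. All panels span the same log2 range, and the groups are apart in every panel, most widely for Tlr9.

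Markers of interferon-producing and myeloid cells were read beside these genes. None of the 17 passed, beside 3.49% of all genes tested. An unadjusted p below 0.05 (limma) was found for 5 of them (29.4%, beside 16.1% of all genes tested). In all, 15 of them had means below the median of all genes, and RMA gives no level of 0. The list includes Bst2, itself a member. Their summed level was 76.8, 77.1 and 77.6 in Cre, against 75.2, 76.0 and 76.5 in EV, and the groups did not overlap. The largest difference in the list was that of Ly6c2, 0.49 (SE 0.11; limma adjusted p = 0.0627) on a probe set shared with Ly6c1. Changes over the list ran between -0.24 and 0.49. The others with an unadjusted p below 0.05 were Flt3 (0.34), Itgam (0.24) and S100a9 (0.24), which were higher in Cre, and Tcf4 (-0.24), which pre-B cells also express. Siglech differed by 0.215 (limma adjusted p = 0.415) and Itgax by -0.241 (limma adjusted p = 0.313), with overlapping groups. Elane, Mpo, Cebpa and Cebpe differed by 0.14, 0.11, -0.08 and 0.01. Csf1r, Lyz2, Cd14, Adgre1 and S100a8 differed by at most 0.10 in size. The part of such cells in the interferon values was not tested. In bulk RNA, fewer cells with a transcript and less of it per cell cannot be told apart.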

How the data were processed

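Total RNA was extracted with a Qiagen kit and made into biotin-labelled cRNA for Affymetrix arrays, per the labels' protocols. The deposited values are log2 levels that the authors made with RMA, per the submitters' processing notes. No RMA version is stated in them. RMA sets all arrays to one distribution, so every change is relative to other genes, and dim genes have understated changes. The number of arrays (3 per group) limits the precision.

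Of 25006 probe sets, 21467 were assigned to 1 gene in the platform annotation, 1521 to several and 2018 to none. The brightest probe set per gene was kept (19733 genes). Names were updated by gene identifier through a RefSeq table (GRCm38.p6), which also gave the promoters. Cre was compared with EV in limma 3.58.1 (R 4.3.3; lmFit, eBayes, group only), with Benjamini-Hochberg adjustment over all genes. Isg15, Gbp2 and other genes with shared probe sets alone were taken from the same fit over all probe sets. In a simulation with 19733 genes, 58% of 100 true differences of 0.5 log2 were called, and 88% of 100 of 1 log2. Its noise was normal, with the SDs of the data shuffled over genes. As 689 genes passed in the data, these rates need not hold for the members. Tables and plots were made with Python 3.11.15, pandas 2.3.3 and matplotlib 3.10.9.

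The members and the lists were chosen with earlier results of these data known. All 45 members, Ppp2r1a and, in each further interferon list, up to 6 passing genes, taken by smallest p, were named. The pre-B, myeloid and ligand genes given as values, and the pairs of members, were named after their values were seen. Alternatives were the repeat number as a block, centring arrays on their medians, dropping the dimmest 25% or 50% of genes, eBayes with trend and robust settings, all probe sets adjusted together, the mean of probe sets and leaving out each array.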

Additional observations from a re-analysis of the deposited data

How the results depend on the processing

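Of 555 comparisons of a member with its value under an alternative, 500 kept direction and side of the threshold, 27 lost and 6 gained a call, and 22 changed sign, all of genes that had not passed. Mx2, whose change rounded to 0.0, was counted as kept throughout. With an array left out its change lay between -0.169 and 0.093. With the lowest 50% of genes left out, fewer genes were tested and 4 members rose (Irf1, Isg20, Ifi35 and Ddx58) and 3 fell (Ifngr1, Ifit2 and Dtx3l). Ifi35 also passed with the lowest 25% left out, and Ifi35 and Dtx3l with trend and robust moderation. With the mean of probe sets 1 member rose. The median change was 0.057 and 0.027 with the lowest 25% and 50% left out, over the members that remained. Leaving out each array in turn, 0 to 1 member rose, 0 to 1 fell, and the median change lay between 0.053 and 0.072. In these fits the change lay between -0.084 and 0.045 for Irf7, -0.107 and 0.117 for Irf9, -0.018 and 0.036 for Ifnar1, -0.061 and 0.049 for Usp18, -0.012 and 0.308 for Oas2, -0.002 and 0.257 for Oasl1, -0.05 and 0.151 for Oasl2, -0.074 and 0.015 for Eif2ak2, -0.091 and 0.011 for Gbp3, and -0.015 and 0.122 for Psmb9. Median centring turned the change of Irf7 to 0.004. Of all genes tested 537 rose and 758 fell with the lowest 50% left out, 640 and 918 with trend and robust moderation, and 138 to 169 and 215 to 270 with an array left out. The alternatives for the further interferon lists were chosen after seeing the data. Other pathway genes that rose were 1 to 2 with an array left out, and 3 fell with the lowest 50% left out. Other induced genes that rose were 8 with the lowest 50% left out, 9 with trend and robust moderation and 0 to 1 with an array left out, and those that fell were 2, 3 and 4 with the lowest 25% left out, the lowest 50% left out and trend and robust moderation. The cause of these moves was not tested.

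The labels number the repeats but do not say whether same-numbered arrays were paired. Deviations of same-numbered arrays correlated with r = 0.009, -0.012 and 0.03, and those of the other pairs with r between -0.028 and 0.017. All were close to 0, and they do not settle whether the arrays were paired. With the replicate block 0 members rose and 0 fell (limma adjusted p = 0.0938 for Irf1, 0.0562 for Ifngr1, 0.0661 for Ifit2 and 0.0772 for Isg20), 0 other induced genes rose, and 157 of all genes rose and 268 fell. Signal over background is not in the values used, so dim members such as Mx1 have changes that may be understated.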
